A study of Mus musculus with 24 samples.

Results

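Hippocampal RNA from female PS19 mice that carry the human R47H-TREM2 allele was set against hippocampal RNA from female PS19 mice with mouse Trem2 only. The members are the 8 female libraries that bear the prefix LG72 in the hippocampus count table, of 24 libraries in the series. The R47H-TREM2 group holds libraries LG72_53, LG72_54, LG72_59, LG72_77 and LG72_127, labelled P301S+;hTREM2-R47H/+. The Trem2+/+ group holds libraries LG72_55, LG72_101 and LG72_126, labelled P301S+;msTrem2+/+. All 24 libraries are labelled P301S+, so the comparison is made within tauopathy mice and holds no mouse without the tau transgene. PS19 is a mouse line that expresses human tau with the P301S change from the mouse prion protein promoter. R47H is a rare change in human TREM2 linked to a higher risk of Alzheimer's disease. The labels give no age for the mice, do not say what the prefix stands for, and do not say whether libraries came from separate animals. The p-values therefore measure only the spread between libraries, which the gene tests estimated over all 24 libraries. The other groups of the series are 5 male R47H-TREM2 and 2 male Trem2+/+ libraries with the same prefix, and 6 female WT-TREM2 (the common human allele) and 3 female Trem2+/+ libraries with the prefix LG73. Of 24058 genes in the table, 16118 passed the filter on low counts and were tested.

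TREM2 is a receptor on the surface of microglia, the resident macrophages of the brain. It binds lipids and apolipoproteins and signals through the adaptor TYROBP (DAP12), the kinase SYK and phosphoinositide 3-kinase. In mouse models with plaques or tau pathology, microglia shift from a resting profile to one with high Apoe, Clec7a and cathepsins, and astrocytes become reactive and express Gfap and Vim. The study's title names microglial states and the kinase AKT, and the female comparison bears on how the hippocampal transcriptome differs with the R47H allele.

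Trem2 (GRCm38 chr17:48346401-48354147, plus strand) had 29.7, 13.7, 15.4, 7.14 and 24.4 CPM (counts scaled to library size, with TMM factors) in R47H-TREM2 libraries, against 26.4, 5.81 and 17.2 CPM in Trem2+/+ libraries. In every list of values below, R47H-TREM2 libraries stand in the order LG72_53, LG72_54, LG72_59, LG72_77 and LG72_127, and Trem2+/+ libraries in the order LG72_55, LG72_101 and LG72_126. The groups overlapped over nearly their whole range, at 18.1 ± 8.94 CPM in R47H-TREM2 and 16.5 ± 10.3 CPM in Trem2+/+ (SD, n = 5 and 3). The difference of 0.22 in mean log2 CPM had a two-sided exact permutation p of 0.750, where 56 groupings allow no p below 0.0357. How many reads of the human allele the authors' counting placed under mouse Trem2 is not known, so this row does not check the genotype labels. Mapt, the mouse tau gene, had 503 to 711 CPM in R47H-TREM2 and 420 to 657 CPM in Trem2+/+ libraries. Prnp, whose promoter drives the tau transgene, had 1239 to 2903 CPM in R47H-TREM2 and 1772 to 2247 CPM in Trem2+/+ libraries. All 8 libraries carried Xist at 100.8 to 342.9 CPM and the Y-linked Ddx3y at no more than 0.424 CPM, the pattern of female tissue.

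Total counts ran from 13261478 to 17442293 in R47H-TREM2 libraries and from 17545680 to 23807390 in Trem2+/+ libraries, so every R47H-TREM2 library was shallower than every Trem2+/+ library. Pyramidal and granule cell markers of the hippocampus were present throughout. The 17 CA1 markers summed to 887 to 1601 CPM in R47H-TREM2 and 1645 to 1834 CPM in Trem2+/+ libraries. The 18 dentate granule cell markers summed to 605 to 1056 CPM in R47H-TREM2 and 711 to 968 CPM in Trem2+/+ libraries. Several libraries also carried transcripts of neighbouring tissue. Omp, the olfactory marker protein of the nasal sensory neurons, had 420 CPM in Trem2+/+ library LG72_55 and at most 3.53 CPM in the other 7, and S100a5 had 119 CPM there against at most 2.40 CPM. Library LG72_55 was the highest of the 8 for 9 of 20 olfactory sensory and 12 of 18 olfactory bulb genes tested. Adora2a, Penk and Drd2, markers of striatal projection neurons, had 53.6, 209 and 18.1 CPM in Trem2+/+ library LG72_126, which was the highest for 19 of 21 striatal genes. Prolactin (Prl) had 979 CPM and growth hormone (Gh) 78.3 CPM in R47H-TREM2 library LG72_127, against at most 11.2 and 1.62 CPM elsewhere. Transthyretin (Ttr), the main choroid plexus transcript, had 2945 CPM in R47H-TREM2 library LG72_54 and 33.1 CPM in Trem2+/+ library LG72_126. Albumin (Alb) had 157 and 105 CPM in R47H-TREM2 libraries LG72_77 and LG72_127 and 70.4 and 70.2 CPM in Trem2+/+ libraries LG72_55 and LG72_126, against at most 6.55 CPM in the other 4. Library LG72_77 was the highest for 23 of 29 liver genes.

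**Figure D1:**
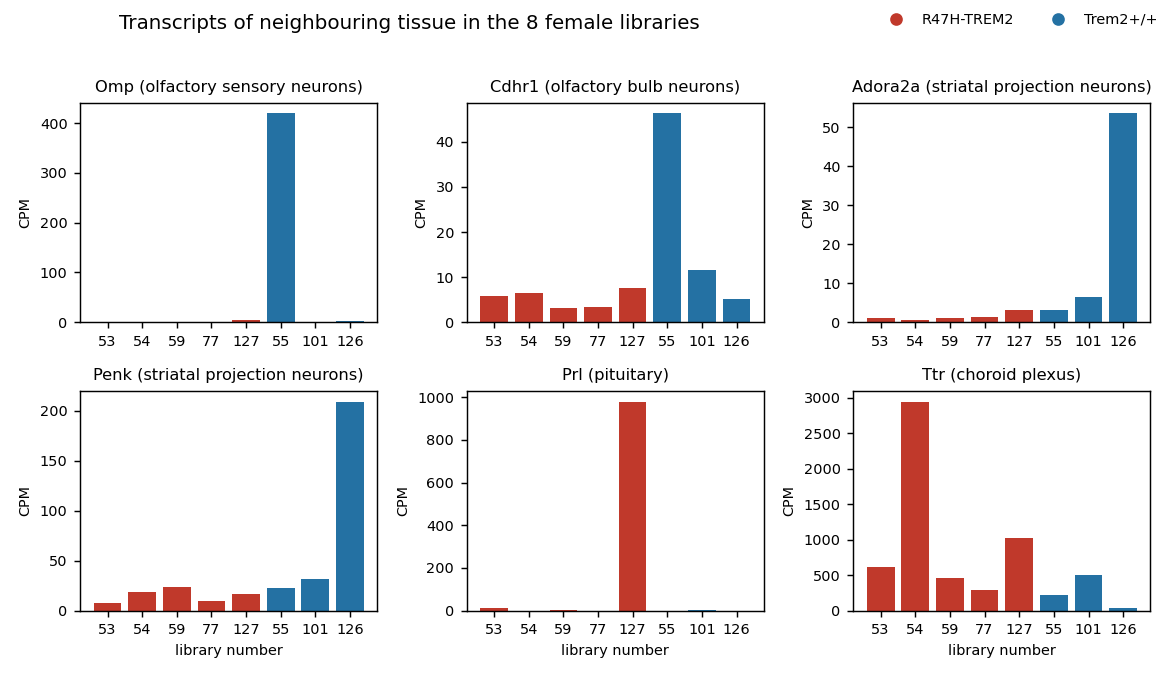
Level of 6 transcripts of neighbouring tissue (CPM, linear axes from 0) in each R47H-TREM2 library (red) and each Trem2+/+ library (blue), 1 bar a library. Omp and Cdhr1 peak in Trem2+/+ library LG72_55, Adora2a and Penk in Trem2+/+ library LG72_126, Prl in R47H-TREM2 library LG72_127 and Ttr in R47H-TREM2 library LG72_54.

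No gene passed an adjusted p of 0.05 by edgeR's quasi-likelihood test with Benjamini-Hochberg adjustment over all genes tested (0.0%), and the smallest adjusted p was 0.140. At an unadjusted p under 0.05 there were 2262 genes (14.0%), of which 1399 (8.68%) were higher and 863 (5.35%) lower in R47H-TREM2. That balance depended on single libraries and on scaling, with 1223 higher and 1383 lower without R47H-TREM2 library LG72_54, 961 higher and 967 lower without Trem2+/+ library LG72_101, and 1600 higher and 631 lower with upper-quartile scaling. The median log2 fold change of all genes was 0.005, with 8134 genes (50.5%) above 0. All 5 R47H-TREM2 libraries lay above all 3 Trem2+/+ libraries for 579 genes (3.59%) and below them for 388 genes (2.41%). Library LG72_53 was the highest R47H-TREM2 library for 356 of the 579 genes (61.5%) and the lowest for 203 of the 388 genes (52.3%). DESeq2, run as an alternative, called 137 genes higher (0.852%) and 40 lower (0.249%) at an adjusted p under 0.05. All 177 of these had an edgeR p under 0.05, and the groups did not overlap for 108 of the higher and 30 of the lower ones. Both counts follow in part from the choice of these genes by p in the same libraries. In simulated counts of the same design, edgeR recovered 41% of genes changed 2-fold and 89% of genes changed 4-fold. Whether these rates, or those from simulated counts given below, hold for real libraries that carry transcripts of neighbouring tissue was not tested. Without Trem2+/+ libraries LG72_55 and LG72_126 the control group is 1 library, assumed to vary like the other libraries of the fit, and 1314 genes had an unadjusted p under 0.05, of which 679 were among the 2262 with the same direction. Without library LG72_126 alone there were 1434, and without R47H-TREM2 library LG72_53 alone 1510. No gene below is therefore called changed, and each is given by its levels.

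Of the 30 named genes with the smallest p, 17 were higher and 13 lower in R47H-TREM2, with edgeR adjusted p of 0.140 to 0.141. The groups did not overlap for 24 of them, 15 above and 9 below, beside 3.59% and 2.41% of all genes tested. These genes were picked by p in the same libraries, so separated groups follow in part from that choice. Of the 30, Omp, S100a5 and Doc2g were highest in library LG72_55 and changed sign without libraries LG72_55 and LG72_126.

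Wdr6 (chr9:108572311-108578739, minus strand), which encodes a WD-repeat protein that takes part in tRNA methylation, had 108, 125, 113, 129 and 109 CPM in R47H-TREM2 libraries, against 214, 216 and 206 CPM in Trem2+/+ libraries. Each group was tight and the groups lay far apart, with a ratio of 1.59 between their nearest libraries. The means were 117 ± 9.71 CPM in R47H-TREM2 and 212 ± 5.15 CPM in Trem2+/+ (SD, n = 5 and 3), a log2 fold change of -0.86 ± 0.18 (SE; edgeR adjusted p = 0.140, DESeq2 adjusted p = 0.00388). It stayed between -0.93 and -0.83 when any single library was left out and was -0.92 without libraries LG72_55 and LG72_126. Hap1 (chr11:100347327-100356128, minus strand), a huntingtin-associated protein that carries cargo along microtubules in neurons, had 70.6, 70.7, 66.7, 74.4 and 66.6 CPM in R47H-TREM2 libraries, against 135, 113 and 135 CPM in Trem2+/+ libraries. The 5 R47H-TREM2 values lay close together, and the log2 fold change was -0.88 ± 0.21 (SE; edgeR adjusted p = 0.141, DESeq2 adjusted p = 0.0176).

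Sdf2l1 (chr16:17130138-17132383, minus strand), a co-chaperone of the endoplasmic reticulum, had the smallest p among the named genes higher in R47H-TREM2. It had 41.5, 46.9, 31.5, 24.6 and 58.0 CPM in R47H-TREM2 libraries, against 17.2, 14.9 and 20 CPM in Trem2+/+ libraries. The log2 fold change was 1.22 ± 0.25 (SE; edgeR adjusted p = 0.140, DESeq2 adjusted p = 0.00376), and library LG72_77 was the closest to the controls. Ddo, the D-aspartate oxidase, had 18.9, 14.2, 10.3, 11.2 and 14.0 CPM in R47H-TREM2 libraries, against 6.33, 6.48 and 4.04 CPM in Trem2+/+ libraries. Hist1h2be, a replication-dependent histone gene whose near-identical copies can share reads, had 4.19 to 10.5 CPM in R47H-TREM2 and 0.945 to 2.38 CPM in Trem2+/+ libraries. The groups were apart for each of these genes.

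Thbs4 (chr13:92751590-92794818, minus strand), a secreted thrombospondin made by astrocytes, had 94, 85.9, 38.7, 27.2 and 47.5 CPM in R47H-TREM2 libraries, against 8.28, 11.6 and 16.8 CPM in Trem2+/+ libraries. Libraries LG72_53 and LG72_54 stood well above the other 3, and the lowest, LG72_77, was still above every control, at a log2 fold change of 2.26 ± 0.54 (SE; edgeR adjusted p = 0.141). Nuf2, a kinetochore subunit, showed the widest gap of all genes of at least 5 CPM on average, with 18.3, 8.24, 5.69, 6.24 and 7.56 CPM in R47H-TREM2 libraries, against 2.44, 2.07 and 2.51 CPM in Trem2+/+ libraries. Anxa3, a phospholipid-binding annexin, had 9.67 to 35.2 CPM in R47H-TREM2 and 5.39 to 6.03 CPM in Trem2+/+ libraries. Erbb2ip, which encodes the scaffold protein Erbin, had 439, 183, 180, 190 and 202 CPM in R47H-TREM2 libraries, against 109 ± 2.98 CPM in Trem2+/+ libraries (SD, n = 3). Library LG72_53 stood far above the rest there, while the other 4 R47H-TREM2 libraries lay close together and clear of the controls. Padi2, a peptidyl-arginine deiminase of glia, had 65.2 to 179 CPM in R47H-TREM2 and 23.3 to 43.2 CPM in Trem2+/+ libraries. Gldc, the glycine decarboxylase of astrocyte mitochondria, had 42.5 to 73.5 CPM in R47H-TREM2 and 28.8 to 32.7 CPM in Trem2+/+ libraries. Pdpn, the glycoprotein podoplanin of reactive astrocytes, had 74.0, 53, 36.8, 21.2 and 58.0 CPM in R47H-TREM2 libraries, against 15.4, 23.8 and 15.1 CPM in Trem2+/+ libraries, so that library LG72_77 lay within the control range.

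**Figure D2:**
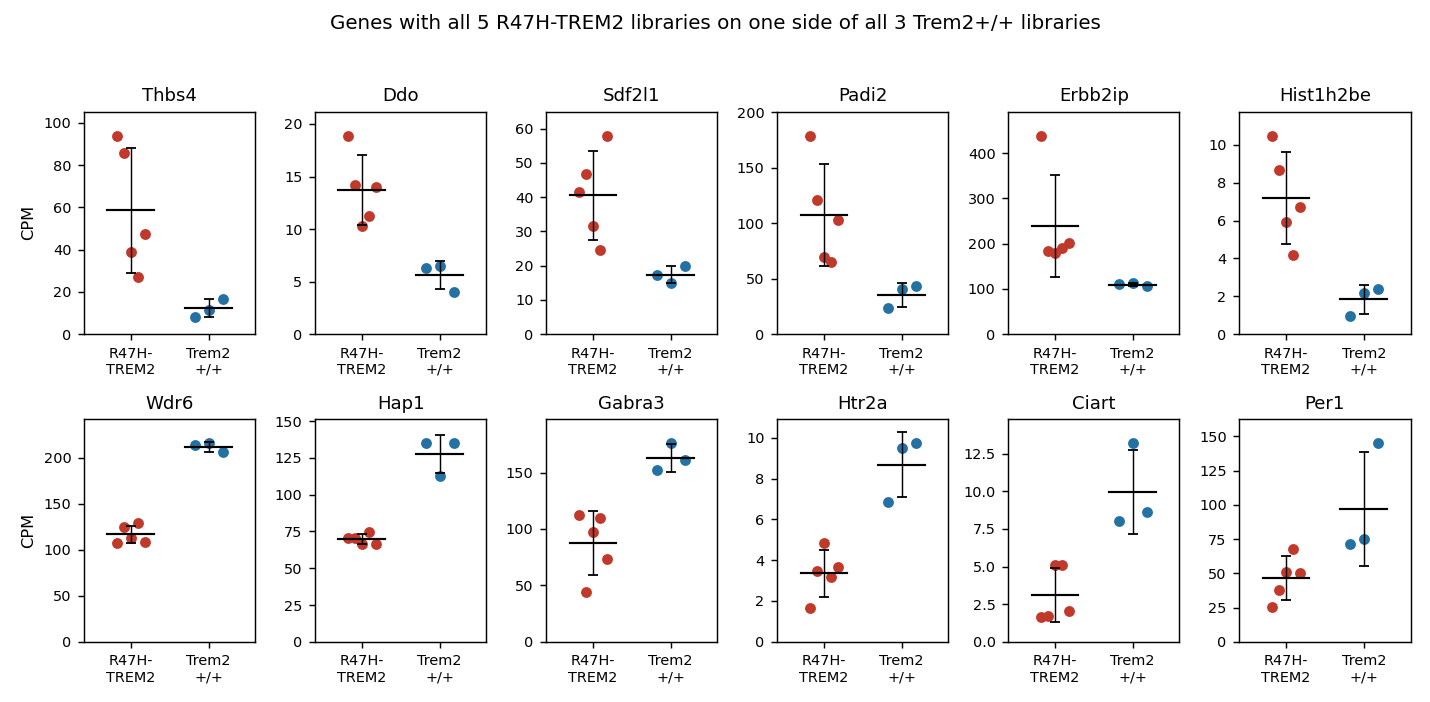
Level (CPM, linear axes from 0) of 12 genes in the 5 R47H-TREM2 libraries (red) and the 3 Trem2+/+ libraries (blue), 1 point a library, with the mean and SD of each group. The top row shows 6 genes whose R47H-TREM2 libraries all lie above the Trem2+/+ libraries, and the bottom row 6 whose R47H-TREM2 libraries all lie below them.

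Among 22 genes of the TREM2 receptor complex and the signalling below it, 19 were higher in R47H-TREM2, with a median log2 fold change of 0.94. At an unadjusted p under 0.05, 11 were higher (all genes tested: 8.68%) and 0 lower, and 3 had all R47H-TREM2 libraries above all Trem2+/+ libraries (all genes tested: 3.59%). The adaptor Tyrobp had 54.7, 20.9, 27.6, 15.8 and 36.9 CPM in R47H-TREM2 libraries, against 27.9, 6.71 and 9.60 CPM in Trem2+/+ libraries. Trem2+/+ library LG72_55 lay inside the R47H-TREM2 range there, as it did for Trem2 itself. In bulk tissue, more cells of a type and more RNA per cell cannot be told apart, here and in all lists that follow. The 3 genes with separated groups were Ptpn6, Syk and Hcst, of which Syk and Hcst are named after their values were seen. Syk, the kinase that the adaptor recruits, had 10, 5.17, 5.49, 3.98 and 8.54 CPM in R47H-TREM2 libraries, against 3.72, 3.13 and 3.70 CPM in Trem2+/+ libraries. Hcst, an alternative adaptor (DAP10), had 0.225 to 1.32 CPM in R47H-TREM2 and at most 0.127 CPM in Trem2+/+ libraries. These levels are close to the floor, so its separation rests on few counts. Ptpn6, the phosphatase SHP-1, had 21.4, 13.6, 9.53, 5.76 and 14.8 CPM in R47H-TREM2 libraries, against 4.39, 2.85 and 5.69 CPM in Trem2+/+ libraries. The groups touched without overlapping, at a log2 fold change of 1.59 ± 0.45 (SE; edgeR adjusted p = 0.18, DESeq2 adjusted p = 0.0400). Inpp5d, the lipid phosphatase SHIP1, had 11.7 to 25.3 CPM in R47H-TREM2 and 7.15 to 12.2 CPM in Trem2+/+ libraries, an overlap through library LG72_77 alone. Pik3cg, the catalytic gamma subunit of phosphoinositide 3-kinase in blood-lineage cells, had 9.37, 8.02, 6.02, 3.02 and 7.56 CPM in R47H-TREM2 libraries, against 3.11, 2.91 and 4.29 CPM in Trem2+/+ libraries. Nckap1l, a subunit of the WAVE actin complex, had 10.2 to 28.3 CPM in R47H-TREM2 and 9.95 to 12.3 CPM in Trem2+/+ libraries.

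Of 38 general PI3K, AKT and mTOR genes tested, 11 were higher and 27 lower in R47H-TREM2, with a median log2 fold change of -0.18. With an unadjusted p under 0.05, 3 were higher and 4 lower, beside 8.68% and 5.35% of all genes, and 2 had all R47H-TREM2 libraries below the controls (5.26%, beside 2.41%). The 2 were Tsc1 and Rictor. The list median was -0.27 without library LG72_54 and -0.11 without library LG72_53. Tsc1, a subunit of the complex that restrains mTOR, had 44.3, 44.2, 49.1, 42.6 and 37.5 CPM in R47H-TREM2 libraries, against 57.0, 57.6 and 74.4 CPM in Trem2+/+ libraries. Rictor, a subunit of mTOR complex 2 and named after its values were seen, had 41.2, 41.0, 34.5, 39.7 and 25.1 CPM in R47H-TREM2 libraries, against 43.0, 56.1 and 44.8 CPM in Trem2+/+ libraries. These are transcript levels, and kinase activity was not measured here.

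Of 27 resting-microglia markers, 26 were higher in R47H-TREM2, with a median log2 fold change of 1.07. By unadjusted p under 0.05, 20 were higher and 0 lower, beside 8.68% and 5.35% of all genes, while only 3 kept the groups fully apart, beside 3.59%. The 3 were Aif1, Ly86 and Gpr34. Aif1 (IBA1, an actin-bundling protein of microglia; chr17:35170991-35176068, minus strand) had 64.4, 20.2, 22.3, 13.2 and 38.6 CPM in R47H-TREM2 libraries, against 7.39, 8.27 and 9.22 CPM in Trem2+/+ libraries. The controls were tight and the R47H-TREM2 libraries widely spread, at a log2 fold change of 1.93 ± 0.44 (SE; edgeR adjusted p = 0.141, DESeq2 adjusted p = 0.00388). Ly86, which pairs with a Toll-like receptor homologue, had 87.9, 43.7, 45.6, 15.5 and 54.9 CPM in R47H-TREM2 libraries, against 13.2, 10.7 and 15.3 CPM in Trem2+/+ libraries. The tetraspanin Cd53 had 70.3, 27.8, 21.6, 11.4 and 34.5 CPM in R47H-TREM2 libraries, against 11.5, 9.39 and 11.7 CPM in Trem2+/+ libraries. Gpr34, a lysophospholipid receptor named after its values were seen, had 122, 35.0, 31.2, 27.3 and 68.1 CPM in R47H-TREM2 libraries, against 24.1, 22.0 and 15 CPM in Trem2+/+ libraries. Every one of these 4 genes had LG72_53 on top and LG72_77 at the bottom beside the controls. Library LG72_53 was the highest of all 8 for 18 of the 27 markers. The list median stayed between 0.89 and 1.35 when any single library was left out.

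Of 37 markers of pathology-associated microglia, 34 were higher in R47H-TREM2, with a median log2 fold change of 1.08, 18 higher and 2 lower at an unadjusted p under 0.05 (all genes: 8.68% and 5.35%). The groups were apart for 2 (5.41%), near the 3.59% of all genes. Ccl6, a chemokine, had 16.6, 8.08, 9.99, 4.19 and 18.0 CPM in R47H-TREM2 libraries, against 3.89, 1.73 and 1.44 CPM in Trem2+/+ libraries. Its neighbour Ccl9 had 20.9, 7.70, 9.92, 7.75 and 20.4 CPM in R47H-TREM2 libraries, against 4.39, 1.96 and 1.83 CPM in Trem2+/+ libraries. Ccl6 lies at chr11:83587882-83593087 and Ccl9 at chr11:83572919-83578636, both on the minus strand, and for both the 2 highest libraries were LG72_53 and LG72_127. Cd63, a tetraspanin of late endosomes, had 349, 214, 173, 125 and 296 CPM in R47H-TREM2 libraries, against 120, 104 and 53.2 CPM in Trem2+/+ libraries. Clec7a (dectin-1), a receptor much used to mark these cells, had 172, 31.1, 22.7, 4.19 and 80.5 CPM in R47H-TREM2 libraries, against 8.45, 0.447 and 4.76 CPM in Trem2+/+ libraries. Its values in R47H-TREM2 differed widely between libraries, and library LG72_77 lay below 2 of the 3 controls. Apoe, expressed by astrocytes as well, had 2650 to 3957 CPM in R47H-TREM2 libraries, against 4016, 1691 and 2187 CPM in Trem2+/+ libraries, so that the highest of all was control library LG72_55.

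Reactive-astrocyte genes made up the list with the most members past an unadjusted p of 0.05 in number. Of 37 tested, 34 were higher in R47H-TREM2, 23 at an unadjusted p under 0.05 with 1 lower (all genes: 8.68% and 5.35%). The groups were apart for 6 (16.2%, beside 3.59% of all genes). The median log2 fold change was 1.36, between 1.08 without library LG72_53 and 1.71 without library LG72_55. Gfap, the intermediate filament of reactive astrocytes (chr11:102887336-102900912, minus strand), had 12183, 4102, 2464, 1606 and 7370 CPM in R47H-TREM2 libraries, against 2509, 435 and 621 CPM in Trem2+/+ libraries. Library LG72_53 stood highest and library LG72_77 lowest in R47H-TREM2, and control library LG72_55 lay above 2 of the 5 R47H-TREM2 libraries. The log2 fold change was 2.22 ± 0.67 (SE; edgeR adjusted p = 0.193, DESeq2 adjusted p = 0.0640). Vim, a second intermediate filament, had 370, 192, 145.3, 51.0 and 141 CPM in R47H-TREM2 libraries, against 76.8, 29.7 and 36.4 CPM in Trem2+/+ libraries. Emp1, an epithelial membrane protein, had 2.84 to 8.55 CPM in R47H-TREM2 and 1.57 to 2.78 CPM in Trem2+/+ libraries. Tm4sf1, a tetraspanin-like protein also found in endothelium, had 58.8, 26.0, 16.9, 16.1 and 30.4 CPM in R47H-TREM2 libraries, against 14.6, 8.77 and 7.44 CPM in Trem2+/+ libraries. Library LG72_53 was the highest for 23 of the 37 genes, and Trem2+/+ libraries LG72_101 and LG72_126 were the lowest for 16 and 13. General astrocyte markers had 17 of 20 higher and a median of 0.45, or 0.28 without library LG72_53. Of these 20, 7 were higher at an unadjusted p under 0.05 (all genes: 8.68%) and 3 had the groups apart (15%, beside 3.59%). Among potassium channels, the inward rectifier Kcnj10 of astrocytes was the 1 gene with all R47H-TREM2 libraries above the controls, at 249 to 470 CPM in R47H-TREM2 and 176 to 211 CPM in Trem2+/+ libraries.

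**Figure D3:**
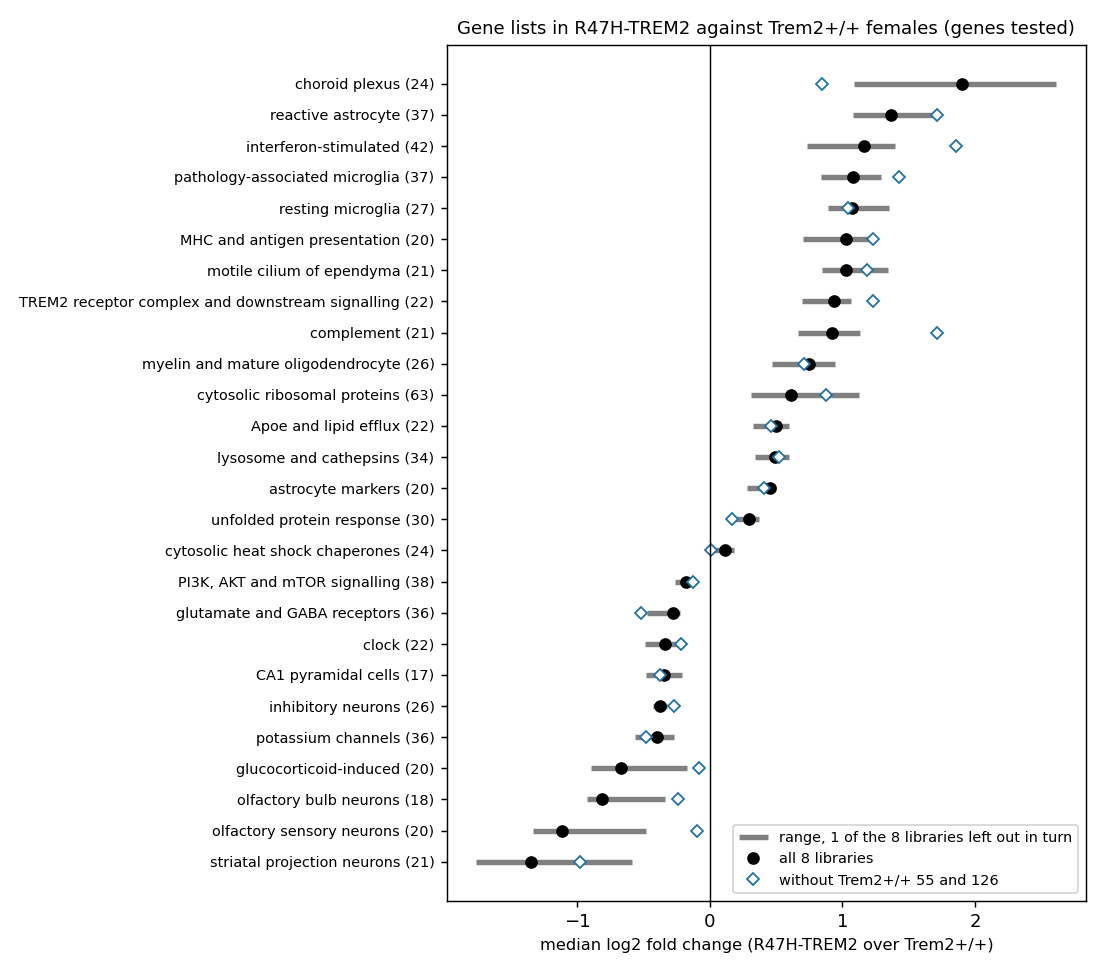
Median log2 fold change (R47H-TREM2 over Trem2+/+) of 26 gene lists, with the number of genes tested in parentheses. Black points use all 8 libraries, grey bars span the values with each library left out in turn, and open diamonds leave out Trem2+/+ libraries LG72_55 and LG72_126. The olfactory, glucocorticoid and choroid plexus diamonds lie nearer 0 than the black points, and the interferon and complement diamonds farther from 0.

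Of 42 interferon-stimulated genes, 41 were higher in R47H-TREM2, with a median log2 fold change of 1.16. At an unadjusted p under 0.05, 16 were higher and 0 lower (all genes: 8.68% and 5.35%). The groups were apart for 2 (4.76%, beside 3.59% of all genes). Gbp2, an interferon-induced guanylate-binding protein (chr3:142620602-142638008, plus strand), had 17.1, 11.7, 11.4, 4.6 and 15.6 CPM in R47H-TREM2 libraries, against 3.39, 1.79 and 3.65 CPM in Trem2+/+ libraries. Its log2 fold change was 2.03 ± 0.53 (SE; edgeR adjusted p = 0.173, DESeq2 adjusted p = 0.0160). Ifit2, an interferon-induced tetratricopeptide protein named after its values were seen, was the other gene with separated groups, by a narrow margin, at 16.1 to 35.3 CPM in R47H-TREM2 and 14.9 to 15.9 CPM in Trem2+/+ libraries. The paralogs Gbp3 and Gbp5 lie beside Gbp2 on chromosome 3, and reads can be shared among them. Gbp3 had 35.1, 12.5, 9.86, 6.72 and 33.4 CPM in R47H-TREM2 libraries, against 6.06, 2.79 and 7.82 CPM in Trem2+/+ libraries. Gbp5 had 12.5, 4.25, 3.64, 2.81 and 12.4 CPM in R47H-TREM2 libraries, against 1.39, 1.62 and 3.06 CPM in Trem2+/+ libraries. Libraries LG72_53 and LG72_127 stood apart from the other 3 for Gbp3 and Gbp5. The same libraries LG72_53 and LG72_127 were each the highest of the 8 for 20 of the 42 genes, and control library LG72_101 was the lowest for 27. The list median was 0.74 without library LG72_101, and 1.85 with library LG72_101 as the only control.

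Of 21 complement genes, 17 lay higher in R47H-TREM2, and the list median was a log2 fold change of 0.92. The list held 8 higher and 0 lower genes at an unadjusted p under 0.05 (all genes: 8.68% and 5.35%). Serping1, the C1 inhibitor, had 21.2, 11.9, 7.87, 6.38 and 11.9 CPM in R47H-TREM2 libraries, against 6.28, 3.52 and 3.53 CPM in Trem2+/+ libraries. It was 1 of 2 members whose groups did not overlap (9.52%, beside 3.59% of all genes). C4b, the component made by reactive astrocytes and oligodendrocytes, had 598, 480, 194, 85.8 and 327 CPM in R47H-TREM2 libraries, against 120, 26.8 and 72.2 CPM in Trem2+/+ libraries. C1qa, a microglial subunit of C1q, had 196, 146, 117, 51.3 and 217 CPM in R47H-TREM2 libraries, against 113, 34.9 and 82.3 CPM in Trem2+/+ libraries. Control library LG72_55 lay within the R47H-TREM2 range for both genes. Without libraries LG72_55 and LG72_126 the list median was 1.71. All 20 genes of MHC and antigen presentation were higher, 7 of them at an unadjusted p under 0.05 (all genes: 8.68%), with a median of 1.03. H2-K1, a class I heavy chain whose family members can share reads, had 105.8, 70.1, 53.8, 46.0 and 110 CPM in R47H-TREM2 libraries, against 39.3, 19.8 and 40.1 CPM in Trem2+/+ libraries. The class II invariant chain Cd74 had 26.0 CPM in R47H-TREM2 library LG72_127 and 3.44 to 9.86 CPM in the other 4, against 2.72 to 5.01 CPM in Trem2+/+ libraries.

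**Figure D4:**
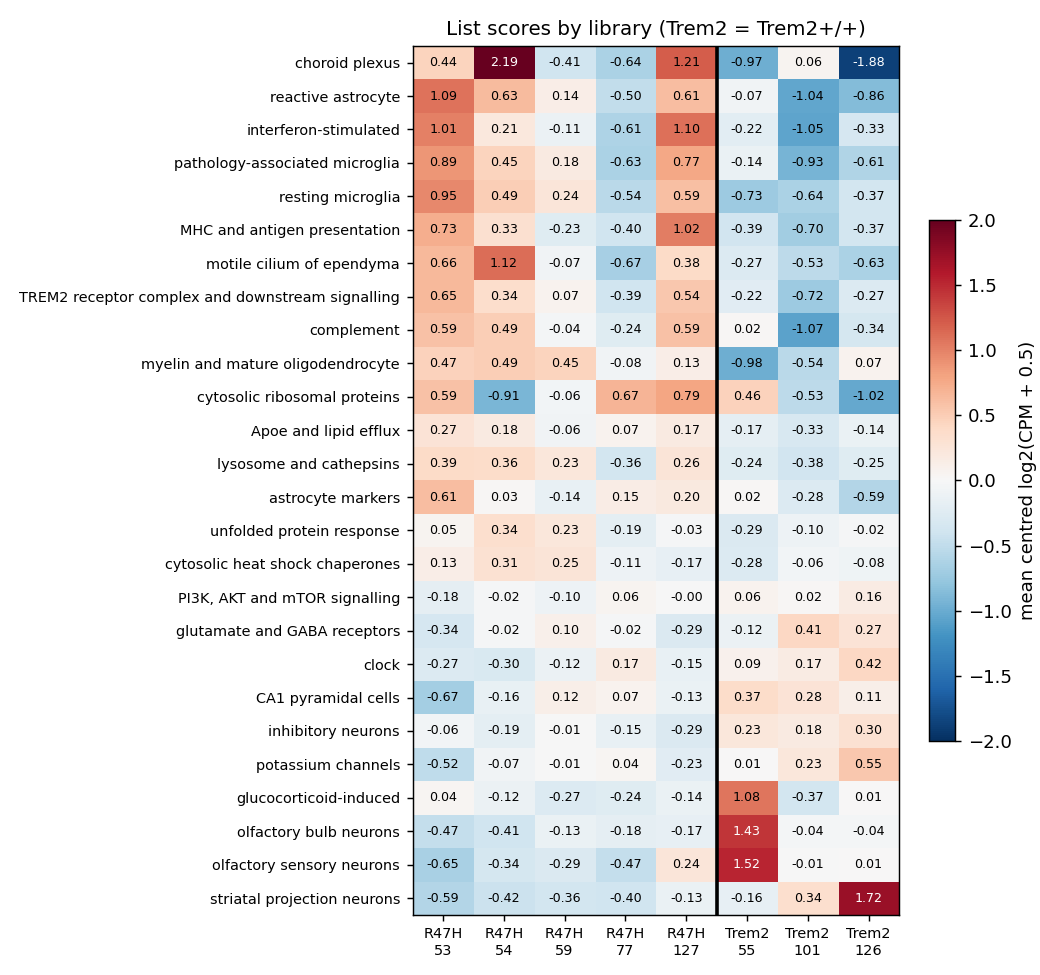
Score of 26 gene lists in each library, as the mean over the tested members of log2(CPM + 0.5) centred on each gene's mean over the 8 libraries. R47H-TREM2 libraries stand left of the black line and Trem2+/+ libraries right of it. Library LG72_77 has negative scores for the microglial, interferon and reactive-astrocyte lists, while library LG72_53 or LG72_127 has the highest.

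Library LG72_77 departed from the other R47H-TREM2 libraries in some of these glial lists. Its score (the mean of centred log2 CPM over a list) for resting microglia was -0.54, against 0.24 to 0.95 in the other 4 R47H-TREM2 libraries and -0.73 to -0.37 in Trem2+/+ libraries. For reactive astrocytes its score was -0.50, against 0.14 to 1.09 in the other 4 and -1.04 to -0.07 in Trem2+/+ libraries. For MHC and antigen presentation, library LG72_59 was near it, at -0.235 against -0.395. For general astrocyte markers library LG72_77 scored 0.151, above libraries LG72_54 at 0.025 and LG72_59 at -0.142. Without library LG72_77, edgeR called 7 genes at an adjusted p under 0.05, all higher in R47H-TREM2. They were 2810459M11Rik, Bfsp2, Capn3, F11r, Il13ra1, Pdpn and Sdf2l1. F11r, a junctional adhesion molecule, had 40.7, 35.4, 20.9, 13 and 27.2 CPM in R47H-TREM2 libraries, against 8, 12.4 and 9.31 CPM in Trem2+/+ libraries. Il13ra1, a subunit of the interleukin-13 receptor, had 48.0, 17.1, 13.6, 8.51 and 24.6 CPM in R47H-TREM2 libraries, against 8, 7.66 and 4.25 CPM in Trem2+/+ libraries. Capn3, a calpain protease named here after its values were seen, had 24.1, 17.2, 15.3, 6.93 and 19.8 CPM in R47H-TREM2 libraries, against 6.61, 7.21 and 5.44 CPM in Trem2+/+ libraries. Library LG72_77 was the nearest to the controls for each of these genes. It was also the highest library for 23 of 29 liver genes, whose part in these levels was not tested. The summed level of that list, which includes Ttr, was 1044 CPM in library LG72_77, against up to 3932 CPM in the other R47H-TREM2 libraries and 541 to 913 CPM in Trem2+/+ libraries.

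Myelin genes were higher in R47H-TREM2. Of 26 markers of mature oligodendrocytes, 25 were higher, 10 at an unadjusted p under 0.05 with 0 lower (all genes: 8.68% and 5.35%). The groups were apart for 6 (23.1%, beside 3.59% of all genes). The median log2 fold change was 0.74, between 0.47 without control library LG72_55 and 0.95 without control library LG72_126. Opalin, a membrane glycoprotein of myelin paranodes, had 81.3, 41.0, 51.3, 44.9 and 52.0 CPM in R47H-TREM2 libraries, against 8.06, 23.9 and 27.9 CPM in Trem2+/+ libraries. Mog, a surface protein of the outer myelin sheath, had 149, 114, 135, 92.0 and 118 CPM in R47H-TREM2 libraries, against 44.2, 80.6 and 90.7 CPM in Trem2+/+ libraries. Car2, the carbonic anhydrase of oligodendrocytes, had 224 to 352 CPM in R47H-TREM2 and 129 to 170 CPM in Trem2+/+ libraries. These 3 genes are among the 6 whose groups were apart, so library LG72_77 lay above every control for each. Over the whole list its score was -0.078, within the -0.983 to 0.069 of Trem2+/+ libraries. Mbp had 10585, 2871, 3383, 7362 and 6498 CPM in R47H-TREM2 libraries, against 2894, 1590 and 2087 CPM in Trem2+/+ libraries. Control library LG72_55, which carried the olfactory transcripts, was the lowest of the 8 for 18 of the 26 genes, and the part of its tissue make-up in this was not tested. Oligodendrocyte precursors had a median of 0.18 over 14 genes, and of 0.10 without control library LG72_101 and 0.33 without control library LG72_126.

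Choroid plexus genes had the highest list median, 1.90 over 24 genes, of which 23 were higher in R47H-TREM2. At an unadjusted p under 0.05, 8 were higher and 1 lower, beside 8.68% and 5.35% of all genes, and 3 had the groups apart (12.5%, beside 3.59%). Ttr had 615, 2945, 458, 295 and 1017 CPM in R47H-TREM2 libraries, against 217, 505 and 33.1 CPM in Trem2+/+ libraries. Kl, the hormone co-receptor klotho, had 46.8, 203, 40.2, 23.5 and 78.5 CPM in R47H-TREM2 libraries, against 21.1, 43.4 and 14.7 CPM in Trem2+/+ libraries. F5, coagulation factor V, had 9.97, 29.5, 5.36, 4.25 and 10.9 CPM in R47H-TREM2 libraries, against 1.94, 3.63 and 1.70 CPM in Trem2+/+ libraries. Library LG72_54 was the highest for 22 of the 24 genes and Trem2+/+ library LG72_126 the lowest for 20. The list median was 1.09 without library LG72_54 and 0.85 with library LG72_101 as the only control. How much choroid plexus tissue each sample held, and its part in other results, was not tested. Cilium genes of ependyma followed the same library, which was the highest for 16 of 21, with 20 higher and a median of 1.03. Foxj1, the transcription factor of motile cilia, had 20.1, 44.5, 11, 6.31 and 28.7 CPM in R47H-TREM2 libraries, against 6.95, 4.02 and 13.3 CPM in Trem2+/+ libraries.

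Several neuronal lists lay lower in R47H-TREM2, while others lay near 0. The median log2 fold change was -0.34 over 17 CA1 genes, -0.38 over 26 genes of inhibitory neurons, -0.40 over 36 potassium channels and -0.28 over 36 glutamate and GABA receptors. The CA1 median was -0.48 without library LG72_127 and -0.21 without library LG72_53, and the receptor median was -0.48 without control library LG72_55. The potassium channel median was -0.27 without control library LG72_126. The inhibitory list shares members with the olfactory bulb and striatal lists, and its median was -0.18 with library LG72_101 as the only control. Dentate granule cell genes had 9 higher and 9 lower, with a median of 0.021, and CA3 and CA2 genes had 10 higher and 10 lower, with a median of -0.022. The list of thalamus and habenula had 11 higher and 11 lower, with a median of 0.047. With an unadjusted p under 0.05, the 4 lists with lower medians held 3, 7, 8 and 4 lower genes, beside 5.35% of all genes. The number with all R47H-TREM2 libraries below the controls was 3, 1, 2 and 2, beside 2.41% of all genes. Crym, a thyroid-hormone-binding protein in CA1 neurons, had 78.9, 92.0, 93.6, 96.5 and 91.7 CPM in R47H-TREM2 libraries, against 206, 153 and 115 CPM in Trem2+/+ libraries. Gabra3, the alpha-3 subunit of the GABA-A receptor, had 112, 44.5, 97.4, 110 and 73.4 CPM in R47H-TREM2 libraries, against 152, 176 and 161 CPM in Trem2+/+ libraries. Grik3, a kainate receptor subunit, had 33.4 to 51.5 CPM in R47H-TREM2 and 62.5 to 115 CPM in Trem2+/+ libraries. The groups were apart for these 3 genes, with the tightest R47H-TREM2 values for Crym. Htr2a, a serotonin receptor, had 1.65, 3.45, 4.83, 3.16 and 3.67 CPM in R47H-TREM2 libraries, against 6.83, 9.50 and 9.73 CPM in Trem2+/+ libraries. Negr1, a neuronal adhesion molecule (chr3:156561794-157316445, plus strand), had 153.9, 131.8, 152, 141 and 123 CPM in R47H-TREM2 libraries, against 214, 256 and 272 CPM in Trem2+/+ libraries, at a log2 fold change of -0.82 ± 0.21 (SE; edgeR adjusted p = 0.144). Htr2a and Negr1 also had every R47H-TREM2 library below every control.

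For other neuronal genes, the controls were spread and library LG72_126 was the highest. Hrh3, the histamine autoreceptor, had 31.9, 24.2, 35.7, 41.5 and 32.6 CPM in R47H-TREM2 libraries, against 70.6, 50.1 and 90.8 CPM in Trem2+/+ libraries. Kcnt1, a sodium-activated potassium channel, had 13.4, 11.2, 21.5, 28.5 and 19.1 CPM in R47H-TREM2 libraries, against 31.5, 26.8 and 57.4 CPM in Trem2+/+ libraries. Kcnj4, an inward rectifier, had 25.8, 54.8, 81.6, 100 and 65.8 CPM in R47H-TREM2 libraries, against 123.7, 78.7 and 208 CPM in Trem2+/+ libraries. Library LG72_126 also carried the striatal transcripts. With library LG72_101 as the only control, the log2 fold change was -0.63 for Hrh3, -0.55 for Kcnt1 and -0.29 for Kcnj4, against -1.09, -1.04 and -1.06 with all 3 controls. The striatal list itself had a median of -1.35 over 21 genes and -0.58 without library LG72_126, and its genes summed to 491 to 777 CPM in R47H-TREM2 and 699 to 1872 CPM in Trem2+/+ libraries. The olfactory sensory and bulb lists had medians of -1.12 and -0.82, and -0.48 and -0.34 without library LG72_55. The part of this tissue in the other neuronal genes was not tested.

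Glucocorticoid-induced genes were highest in the same control library LG72_55 for 14 of 20. The list median was -0.67, and -0.17 without library LG72_55. Fkbp5, a chaperone of the glucocorticoid receptor, had 31.2, 60.1, 48.1, 30.6 and 42.6 CPM in R47H-TREM2 libraries, against 174, 52.8 and 45.5 CPM in Trem2+/+ libraries. Mfsd2a, a lipid transporter of brain endothelium, had 8.37 to 11.2 CPM in R47H-TREM2 libraries, against 37.0, 9.56 and 11.4 CPM in Trem2+/+ libraries. Libraries LG72_101 and LG72_126 lay within the R47H-TREM2 range for Fkbp5, and within it or just above it for Mfsd2a.

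Clock genes were lower in R47H-TREM2 for 19 of 22, with a median log2 fold change of -0.34. By unadjusted p under 0.05, 6 were lower and 1 higher (all genes: 5.35% and 8.68%). All R47H-TREM2 libraries lay below the controls for 5 (22.7%, beside 2.41% of all genes). The clock runs as a loop in which CLOCK and BMAL1 bind E-boxes of the Per and Cry genes, whose proteins then repress that binding. Ciart, a repressor of the same loop (chr3:95878503-95882251, minus strand), had 1.65, 1.72, 5.09, 5.08 and 2.05 CPM in R47H-TREM2 libraries, against 8.06, 13.2 and 8.63 CPM in Trem2+/+ libraries. The R47H-TREM2 libraries split into 3 low and 2 intermediate values, all below the controls, at a log2 fold change of -1.68 ± 0.39 (SE; edgeR adjusted p = 0.141, DESeq2 adjusted p = 0.0145). Per1 (chr11:69095217-69109960, plus strand) had 25.4, 38.0, 51.3, 67.7 and 50.5 CPM in R47H-TREM2 libraries, against 71.4, 74.8 and 144.7 CPM in Trem2+/+ libraries. Per2 had 9.15, 14.5, 10.1, 15.5 and 12.7 CPM in R47H-TREM2 libraries, against 15.7, 18.1 and 32.6 CPM in Trem2+/+ libraries. Both genes were highest in control library LG72_126, and for Per2 the groups nearly met. Without library LG72_126 the log2 fold change of Per1 was -0.65, against -1.06 with all 3 controls. Per3, named after its values were seen, had 3.30, 10.9, 7.14, 11.6 and 9.53 CPM in R47H-TREM2 libraries, against 12.3, 12.6 and 13.5 CPM in Trem2+/+ libraries. Cry2 had 69.5, 109, 100, 122 and 92.1 CPM in R47H-TREM2 libraries, against 130, 132.1 and 171 CPM in Trem2+/+ libraries. The list median was -0.49 without control library LG72_101 and -0.21 without control library LG72_126, the range over all single libraries left out. The labels used here give no time of day of collection, and its part in these levels was not tested.

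Because most of these genes lay on the same side, their promoters were read for the canonical E-box, CACGTG, a palindrome that reads the same on both strands. RefSeq promoter windows of 250 bases upstream of the start site on GRCm38.p6 were found for 18 of the 22 genes. The motif occurred in windows of 5 genes, Per1, Cry1, Tef, Bhlhe41 and Ciart, where a gene counts if any of its windows holds it. Of all 32851 windows, 6.02% held it, a share of windows and not of genes, as some genes have several windows. Ciart held it 3 times, and 20 of all windows (0.0609%) held it at least that often. The windows of Ciart (chr3:95882229-95882478, minus strand) and Per1 (chr11:69098699-69098948, plus strand) are shown 5′ to 3′ because these genes both held the motif and separated the groups, and capitals mark the E-boxes.
Ciart: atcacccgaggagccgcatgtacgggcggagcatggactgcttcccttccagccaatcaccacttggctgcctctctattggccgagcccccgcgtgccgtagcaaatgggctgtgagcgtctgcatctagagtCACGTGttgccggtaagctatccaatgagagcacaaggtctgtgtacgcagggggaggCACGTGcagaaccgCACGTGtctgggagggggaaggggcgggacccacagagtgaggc
Per1: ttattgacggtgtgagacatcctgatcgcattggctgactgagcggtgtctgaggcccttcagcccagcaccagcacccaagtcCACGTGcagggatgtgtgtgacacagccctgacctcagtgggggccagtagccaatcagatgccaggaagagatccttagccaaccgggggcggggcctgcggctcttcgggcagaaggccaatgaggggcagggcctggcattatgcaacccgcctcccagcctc
In Ciart the E-boxes begin 116, 58 and 44 bases before the start site and in Per1 166 bases before it. A second Per1 window holds none. Tef, Cry1 and Bhlhe41 also have the motif and did not separate the groups. Tef had 221 to 403 CPM in R47H-TREM2 and 347 to 473 CPM in Trem2+/+ libraries. Cry2 and Per3, whose windows have no CACGTG, did separate the groups. Per2 separated them too and was among the genes for which no window was found. A match describes the letters in a window and is not a measured binding site.

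Genes of the unfolded protein response of the endoplasmic reticulum were higher for 21 of 30, with a median log2 fold change of 0.29. Of these, 5 were higher and 1 lower at an unadjusted p under 0.05, beside 8.68% and 5.35% of all genes. With the groups apart, 2 lay above (6.67%) and 1 below (3.33%), beside 3.59% and 2.41% of all genes. The list median was 0.17 without control library LG72_55. Manf, a secreted factor induced by stress of this organelle, had 97.9, 84.0, 91.4, 65.3 and 81.3 CPM in R47H-TREM2 libraries, against 53.9, 56.7 and 50.2 CPM in Trem2+/+ libraries. Manf and Sdf2l1 were the 2 that stood above the controls. The gene below the controls was Eif2ak3, the stress kinase PERK, named after its values were seen, with 20.1, 18.0, 21, 16.9 and 16.2 CPM in R47H-TREM2 libraries, against 24.1, 24 and 25.2 CPM in Trem2+/+ libraries. The disulfide isomerase Pdia3 had 491, 483, 420, 256 and 331 CPM in R47H-TREM2 libraries, against 207, 318 and 245 CPM in Trem2+/+ libraries, and the chaperone Calr had 396 to 815 CPM in R47H-TREM2 and 237 to 500 CPM in Trem2+/+ libraries. Among cytosolic chaperones, the median was 0.11 over 24 genes and 0.016 without control library LG72_55. Cryab, a small heat shock protein of glia, had 293, 239, 170, 120 and 174 CPM in R47H-TREM2 libraries, against 63, 73.7 and 97.7 CPM in Trem2+/+ libraries, at a log2 fold change of 1.35 ± 0.35 (SE; edgeR adjusted p = 0.174). Serpinh1, a collagen chaperone that is in neither of these lists, had 21.2 to 46.4 CPM in R47H-TREM2 and 13.5 to 14.8 CPM in Trem2+/+ libraries.

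Lysosomal genes were higher for 28 of 34, with a median log2 fold change of 0.49. At an unadjusted p under 0.05, 15 were higher and 0 lower (all genes: 8.68% and 5.35%). The groups were apart for 2 (5.88%, beside 3.59% of all genes). Hexa, a subunit of lysosomal hexosaminidase, had 123, 104, 97.9, 72.3 and 125 CPM in R47H-TREM2 libraries, against 59.2, 58.0 and 64.1 CPM in Trem2+/+ libraries. Ctsc, a cathepsin that activates granule proteases, had 38.3, 31.6, 17.3, 8.23 and 19.8 CPM in R47H-TREM2 libraries, against 9.67, 9.28 and 8.29 CPM in Trem2+/+ libraries, where library LG72_77 was again at the control level. In the list of Apoe and lipid efflux, 17 of 22 were higher, with a median of 0.50, 4 higher at an unadjusted p under 0.05 (all genes: 8.68%) and 3 with the groups apart (13.6%, beside 3.59%). Its median was 0.32 without library LG72_53. Nr1h3, the liver X receptor alpha that switches on cholesterol efflux, had 9.60, 6.89, 6.15, 5.90 and 12.4 CPM in R47H-TREM2 libraries, against 4, 2.79 and 2.63 CPM in Trem2+/+ libraries. Lcat, which esterifies cholesterol on secreted particles, had 33.2, 39.2, 31.8, 32.9 and 31.1 CPM in R47H-TREM2 libraries, against 20.3, 26.5 and 19.1 CPM in Trem2+/+ libraries. Genes of cholesterol synthesis lay on the other side, with 21 of 23 lower, a median of -0.31 and 2 lower at an unadjusted p under 0.05 (all genes: 5.35%). That median was -0.60 without control library LG72_55 and -0.15 without control library LG72_101.

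Cytosolic ribosomal protein genes were higher for 62 of 63, with a median log2 fold change of 0.62, yet 0 had the groups apart. The median was 0.31 without control library LG72_126 and 1.123 without control library LG72_55. The list score was -0.91 to 0.79 in R47H-TREM2 libraries and -1.02 to 0.46 in Trem2+/+ libraries, so both groups spanned nearly the same range. Rpl3 had 398, 76.5, 142, 468 and 334 CPM in R47H-TREM2 libraries, against 186, 124.2 and 79.9 CPM in Trem2+/+ libraries. The libraries also differed in how level depended on gene length, with slopes of log2 CPM on log2 length, relative to the mean of the libraries, of -0.134, 0.107, -0.0485, -0.133 and -0.206 in R47H-TREM2 and -0.164, 0.127 and 0.126 in Trem2+/+. With that slope as a covariate the ribosomal median was 0.27.

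The female comparison was set beside the male one, which shares no library with it, by testing the difference of the R47H-TREM2 effects. No gene passed an adjusted p of 0.05 by edgeR (0.0%; smallest adjusted p 0.696), and 860 had an unadjusted p under 0.05 (5.34%), 570 of them with the higher fold change in females (3.54%) and 290 with the lower (1.8%). The male control group holds 2 libraries, and in simulated counts this contrast recovered 7% of 2-fold and 61% of 4-fold differences. Of 37 reactive-astrocyte genes, 21 had a higher fold change in females at an unadjusted p under 0.05, with list medians of 1.36 in females and -0.66 in males. For resting microglia the number was 17 of 27, with medians of 1.07 in females and -0.27 in males. Other lists lay on the same side in both sexes. Interferon-stimulated genes had medians of 1.16 in females and 0.60 in males, where 38 of 42 were higher, and 1 had a higher fold change in females at that p. Choroid plexus genes had medians of 1.90 in females and 2.51 in males, where 23 of 24 were higher, and 0 differed at that p. Vim had a log2 fold change of 1.92 ± 0.56 in females and -1.15 ± 0.57 in males (SE), a difference of 3.07 with an unadjusted p of 0.00067. Icam1, an adhesion molecule of inflamed vessels and microglia, had 1.62 ± 0.52 in females and -1.43 ± 0.52 in males (SE), with the smallest unadjusted p of the named genes at 0.000335. Male controls stood above female controls for these genes and Gfap. Vim had 174 and 262 CPM in male Trem2+/+ libraries, against 29.7 to 76.8 CPM in female ones. Gfap had 3252 and 3846 CPM in male ones, against 435 to 2509 CPM in female ones. Icam1 had 5.89 and 14.1 CPM in male ones, against 1.2 to 2.3 CPM in female ones. How much of each difference lies in the control levels was not tested. Myelin and clock lists held no gene that differed at an unadjusted p under 0.05. With so few 2-fold differences recovered in simulated counts, this cannot show that the sexes agree. Myelin genes had a median of 0.74 in females and 0.39 in males, with 0 of 26 differing at an unadjusted p under 0.05. Clock genes had -0.34 in females and -0.22 in males, also with 0 of 22, and the fold change of Ciart was -1.68 in females and -1.53 in males, and of Per1 -1.06 in females and -1.05 in males. The male values of both rest on 1 of 2 control libraries. Ciart had 3.69 to 5.90 CPM in male R47H-TREM2 libraries, against 5.23 and 21.8 CPM in male Trem2+/+ libraries. Per1 had 31.9 to 63.6 CPM in male R47H-TREM2 libraries, against 51.6 and 142 CPM in male Trem2+/+ libraries. The lower male control lay inside the R47H-TREM2 range for both genes.

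The comparison of WT-TREM2 with its own Trem2+/+ females, of the prefix LG73, also shares no library. The prefix and the allele cannot be told apart in a difference between these comparisons. No gene passed an adjusted p of 0.05 by edgeR (0.0%; smallest adjusted p 0.244), and 1459 had an unadjusted p under 0.05 (9.05%), 877 with the higher (5.44%) and 582 with the lower (3.61%) fold change for R47H-TREM2. DESeq2 called 8 genes, Adora2a, Drd2, Hap1, Hrh3, Htr1d, Kcnt1, Nlrp6 and Pm20d1. Hrh3 had a log2 fold change of -1.09 ± 0.26 for R47H-TREM2 and 0.90 ± 0.26 for WT-TREM2 (SE). Hap1 had -0.88 ± 0.21 for R47H-TREM2 and 0.44 ± 0.21 for WT-TREM2. Adora2a had -3.91 ± 1.05 for R47H-TREM2 and 2.73 ± 1.1 for WT-TREM2 (SE), so that this striatal gene differed widely inside both comparisons. Striatal genes as a list had 14 of 21 with a lower fold change for R47H-TREM2 at an unadjusted p under 0.05, with medians of -1.35 for R47H-TREM2 and 1.17 for WT-TREM2. Choroid plexus genes had 23 of 24 with a higher one, with medians of 1.90 for R47H-TREM2 and -2.08 for WT-TREM2. Reactive-astrocyte genes had 18 of 37, with medians of 1.36 for R47H-TREM2 and -0.25 for WT-TREM2. Interferon-stimulated genes had 17 of 42, with medians of 1.16 for R47H-TREM2 and -0.33 for WT-TREM2, and resting microglia 11 of 27, with 1.07 for R47H-TREM2 and 0.12 for WT-TREM2. Ddo had a log2 fold change of 1.29 ± 0.27 for R47H-TREM2 and -0.13 ± 0.24 for WT-TREM2 (SE), a difference with an unadjusted p of 0.00048. Wdr6 had -0.86 ± 0.18 for R47H-TREM2 and 0.003 ± 0.17 for WT-TREM2 (SE), with an unadjusted p of 0.00198.

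**Figure D5:**
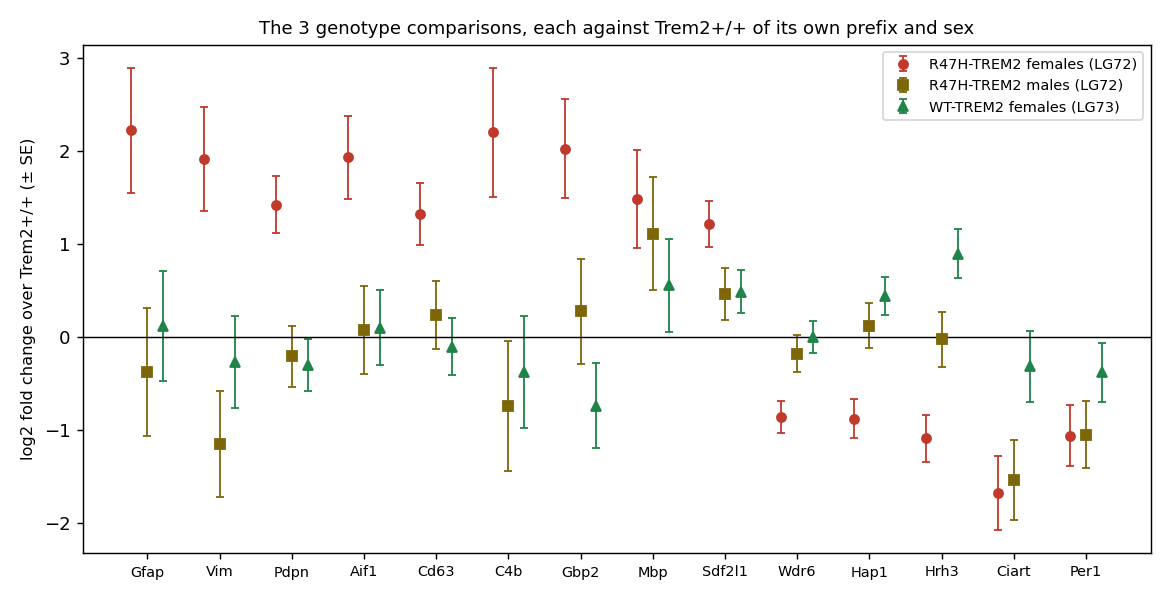
Log2 fold change over Trem2+/+ of the same prefix and sex (± SE from the edgeR fit) of 14 genes, for R47H-TREM2 females (red circles, 5 against 3 libraries), R47H-TREM2 males (brown squares, 5 against 2) and WT-TREM2 females (green triangles, 6 against 3). The astrocyte and microglial genes lie above 0 in R47H-TREM2 females and near or below 0 in the other comparisons, while Ciart and Per1 lie below 0 in both sexes with R47H-TREM2, in males through 1 of the 2 control libraries.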

How the data were processed

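The deposited table held the authors' raw counts per gene for hippocampal tissue; the labels' protocols give column-purified RNA, oligo(dT) selection and library making and sequencing by a company, and the submitters' processing notes name the build GRCm38. Aligner, counter, annotation and strand setting are not stated in the sources at hand, so overlapping, antisense and paralogous genes are uncertain. Columns were matched to samples by title, and 18 columns that match no sample (6 of hippocampus, 12 of cultured cells) were not used. Gene symbols that had been turned into dates (25 rows, 0.353% of counts) stayed in library sizes and were not named.

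All 24 libraries were fitted as 6 group means in edgeR 4.0.16 (R 4.3.3; filterByExpr, TMM, quasi-likelihood test, Benjamini-Hochberg), with limma 3.58.1 and DESeq2 1.42.0 as alternatives, after a test on simulated data of 16118 genes in which 6 unchanged genes were called in the female contrast. CPM used TMM-scaled library sizes, and the groups' total counts differ, so low genes are measured more precisely in Trem2+/+ libraries. Coordinates are from GENCODE M21, promoters from RefSeq on GRCm38.p6, and lengths were found for 95.3% of genes. No 2 libraries of a group agreed within sampling noise. The members and the 50 gene lists were chosen with earlier results of these data known. Genes were named by a rule: the engineered, tau, promoter and sex genes, the 30 smallest p, in each list the smallest p and highest levels, the 10 widest gaps each way, the genes that stand out in 1 library, the smallest p of each difference, and markers of neighbouring tissue; Capn3, Eif2ak3, Gpr34, Hcst, Ifit2, Per3, Rictor and Syk were added after their values were seen. Some genes that the rule names are not reported here. Alternatives were other scalings, filters and tools, fits of fewer groups, a gene-length covariate, thinning, and leaving out libraries.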

Additional observations from a re-analysis of the deposited data

Results flagged for a closer look

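Among 130 named genes, 6 had an R47H-TREM2 library whose gap to its nearest neighbour exceeded Dixon's 95% critical value of 0.710 of the range of log2(CPM + 0.5) over the 5 libraries. Groups of 3 libraries were not checked, and chance flags about 5% of groups. Gh was highest in library LG72_127, at 78.3 CPM against at most 1.27 CPM in the other 4. Erbb2ip was highest in library LG72_53, at 439 CPM against at most 202 CPM. Chpf2, a chondroitin polymerizing factor, was lowest in library LG72_53, at 10.6 CPM against at least 30.2 CPM in the other 4 and 41.4 to 52.9 CPM in Trem2+/+ libraries. Crym was also lowest in library LG72_53, at 78.9 CPM against at least 91.7 CPM. Olfml3, a secreted olfactomedin-like protein of microglia, was lowest in library LG72_77, at 20.3 CPM against at least 37.9 CPM in the other 4, and 5.61 to 24.4 CPM in Trem2+/+ libraries. Lcat was highest in library LG72_54, at 39.2 CPM against at most 33.2 CPM. Without library LG72_53 the log2 fold change of Erbb2ip was 0.79, and of Chpf2 -0.58.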

How the results depend on the processing

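edgeR called 0 genes in the female comparison, 1 without the filter on low counts or with the length covariate (Omp in both), and 177 were called by DESeq2. With each library left out in turn it called 0 to 7, namely 7 without R47H-TREM2 LG72_77, 1 without Trem2+/+ LG72_101 (Omp) and 2 without Trem2+/+ LG72_126 (Omp and Cdhr1). Genes at an unadjusted p under 0.05 numbered 2262, but 1457 in the fit of the 8 females alone, 1314 without libraries LG72_55 and LG72_126, 980 when LG72_127 was left out as well, and 1434 (without LG72_126) to 2956 with 1 library left out. Upper-quartile scaling put 71.7% of them on the higher side, against 61.8%; the share was 46.9% without library LG72_54 and 49.8% without LG72_101. Groups did not overlap for 967 genes, for 5910 without LG72_55 and LG72_126, for 6318 without LG72_127 too, and for 1122 to 2870 with 1 library left out, as fewer libraries overlap less. The difference from WT-TREM2 gave 0 calls by edgeR, 8 by DESeq2 and 1 (Hrh3) without Trem2+/+ LG73_94; that from males gave 0, and 1 (Zfp493) without male Trem2+/+ LG72_70. The Trem2 level was -0.44 to 0.65 with 1 library left out, below 0 without LG72_101. Directions also turned for Trem2 (-0.20 with the length covariate; -0.31 to 0.60 with 1 library left out), Mapt (-0.032 without LG72_55 and LG72_126; -0.14 to 0.21), Ddx3y (0.98; -1.50 to 0.10), Omp (0.51), S100a5 (6.33), Doc2g (1.15, and 0.995 without LG72_127 too; -4.34 to 0.46), Stoml3 (0.95 and 0.81; -4.30 to 0.55), Gh (-1.49 without LG72_127, LG72_55 and LG72_126; -0.071 to 6.71) and Alb (-1.34 with the length covariate; -0.71 to 0.59). Beyond these the cause was not tested. No paired analysis was possible because the groups share no replicate numbers. Low genes are limited by depth: the shallowest library held 13261478 counts.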
